A study of Ciona robusta with 16 samples.

Results

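The genes described here encode ribosomal proteins of the ascidian *Ciona robusta*, a marine invertebrate chordate, and fall into a cytosolic set and a mitochondrial set. They were found by the closest human match given for each KY21 gene model in the study's protein tables, as every gene whose match has a symbol starting with RPL or RPS (without the RPS6K kinases), or with MRPL or MRPS. This gave 59 of 18388 KY21 genes, 27 cytosolic (15 of the large and 12 of the small subunit) and 32 mitochondrial (18 and 14). The tables were held in part, so other ribosomal protein genes of the animal were not analysed here. All 59 passed the filter on low counts, and all had a mean TPM (the share of transcripts after correction for their length, scaled to a fixed total per library) of at least 2 in each of the 8 stages.

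Messenger RNA was measured by poly(A) RNA-seq of wild-type (WT) whole embryos, about 150 embryos to a library, with 2 libraries at each of 8 stages. These were unfertilised eggs (unfE, 0 h post fertilisation, hpf) and fertilised eggs (fertE, 0.4 hpf), 16-cell embryos (cell16, 2.65 hpf), initial gastrulae (iniG, 4.5 hpf), late neurulae (latN, 7.4 hpf), the second stages of the middle tailbud (midTII, 10.9 hpf) and late tailbud (latTII, 13.5 hpf) periods and swimming larvae (17.5 hpf). The replicates of a stage came from separate fertilisations, one of them shared with the study's proteomics.

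A ribosome is built from a large and a small subunit, each a core of ribosomal RNA covered by proteins, most of them present in equal numbers. Cytosolic ribosomes translate the messages of the nucleus, whereas mitochondria have ribosomes of their own, descended from those of bacteria, that make a handful of respiratory chain proteins. Mitochondrial ribosomal proteins are nevertheless encoded in the nucleus and imported. Eggs are stocked by the mother with both kinds of ribosome and with mitochondria, and an embryo draws on these stores before its own genome takes over.

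The libraries held 23.1 to 33.4 M estimated counts, and a member had between 10 counts (the lowest library of MRPS34) and 47634 (the highest of RPLP0). The 7 muscle markers all rose between unfE and larva, and HOXD10, a late axial patterning gene, was at 141 and 189 TPM in larvae, against 0.35 and 0.13 TPM in unfE. In bulk samples such as these, fewer cells of a type and less RNA per cell cannot be told apart.

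Between the egg and the larva the sets moved apart. The cytosolic set took 1.91% and 2.12% of the TPM of all KY21 genes in the larva libraries, against 0.750% and 0.811% in unfE. The mitochondrial set took 0.107% and 0.105% in larvae, against 0.316% and 0.327% in unfE. In neither set did the libraries of the 2 stages overlap. The summed cytosolic TPM was 17.8 and 20.3 times the mitochondrial sum in the larva libraries, against 2.38 and 2.48 times in unfE. These sums are descriptions and carry no test.

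The stages in between placed the separation. The cytosolic share was 0.856% and 0.770% in fertE, 0.864% and 0.813% in cell16, 1.06% and 0.909% in iniG, 1.24% and 0.942% in latN, 1.35% and 1.31% in midTII, and 1.44% and 1.27% in latTII. It was close to the egg's until cell16, and the highest value of any earlier library stayed below both larva libraries. The mitochondrial share was 0.326% and 0.339% in fertE, 0.312% and 0.302% in cell16, 0.326% and 0.303% in iniG, 0.175% and 0.188% in latN, 0.095% and 0.105% in midTII, and 0.102% and 0.088% in latTII. The libraries up to iniG were all above 0.30%, both latN libraries lay between, and none of the later libraries exceeded 0.107%.

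**Figure D1:**
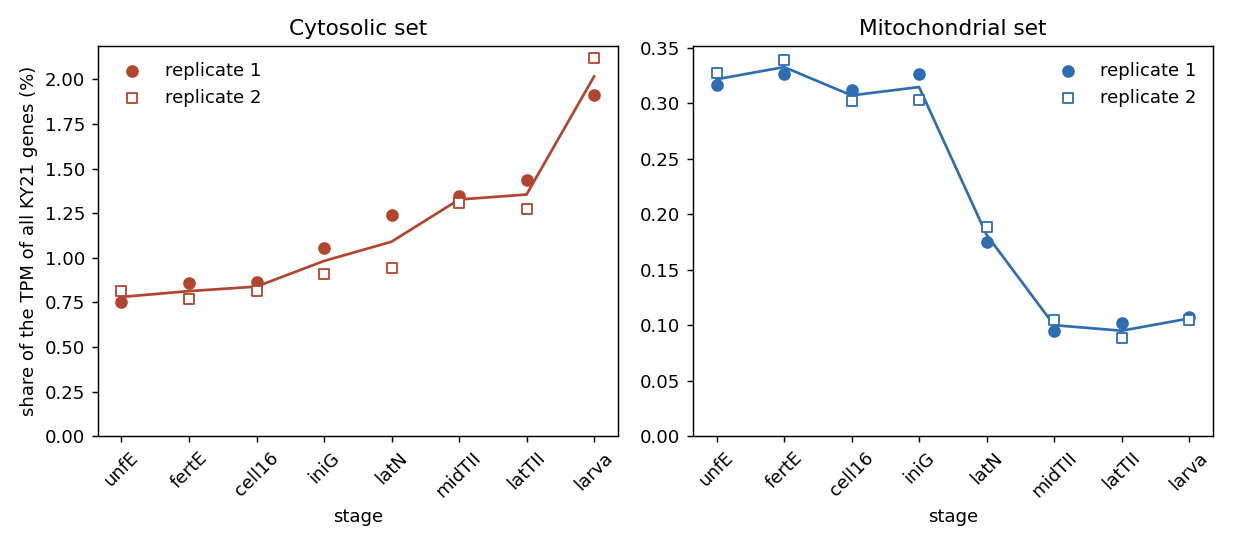
Summed TPM of the cytosolic (left) and mitochondrial (right) ribosomal protein genes as a percentage of the TPM of all KY21 genes, against stage from unfE to larva. Points are single libraries and lines join stage means. The cytosolic share is highest in larvae, at 1.91% and 2.12%, and the mitochondrial share drops between iniG (0.326% and 0.303%) and midTII (0.095% and 0.105%).

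Each gene was tested on its counts by the quasi-likelihood method of edgeR, scaled by TMM factors, with p-values adjusted by the Benjamini-Hochberg method over the 14643 genes tested and a threshold of 0.05. In larvae relative to unfE, all 27 cytosolic members rose and none fell, with a median log2 fold change of 2.10 (range 1.16 to 4.11). Of the 32 mitochondrial members 19 fell, 4 rose and 9 did not pass, with a median of -1.13 (range -2.86 to 1.91). Over all genes tested 71.3% changed in this comparison, 38.3% higher and 33% lower, with a median of 0.26. A call by itself was thus common in this comparison, and the cytosolic calls all had the same sign.

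The subunits had close medians in the cytosolic set. The 15 large-subunit genes had a median log2 fold change of 2.11 and the 12 small-subunit genes one of 1.97. In the mitochondrial set 11 of 18 large-subunit genes fell and 4 rose, and 8 of 14 small-subunit genes fell with none rising. In TPM, both larva libraries lay above both unfE libraries for 27 cytosolic and 4 mitochondrial members, against 39.2% of all genes, and below them for 0 cytosolic and 26 mitochondrial members, against 48.1% of all genes. The fitted changes are relative to the TMM factors, which were 0.814 and 0.787 in larvae, against 1.18 and 1.22 in unfE. Set against the median of all genes, the cytosolic median was 1.84 higher with TMM scaling, 1.83 with RLE factors and 1.80 with library totals, and the mitochondrial median differed by -1.39, -1.39 and -1.43.

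**Figure D2:**
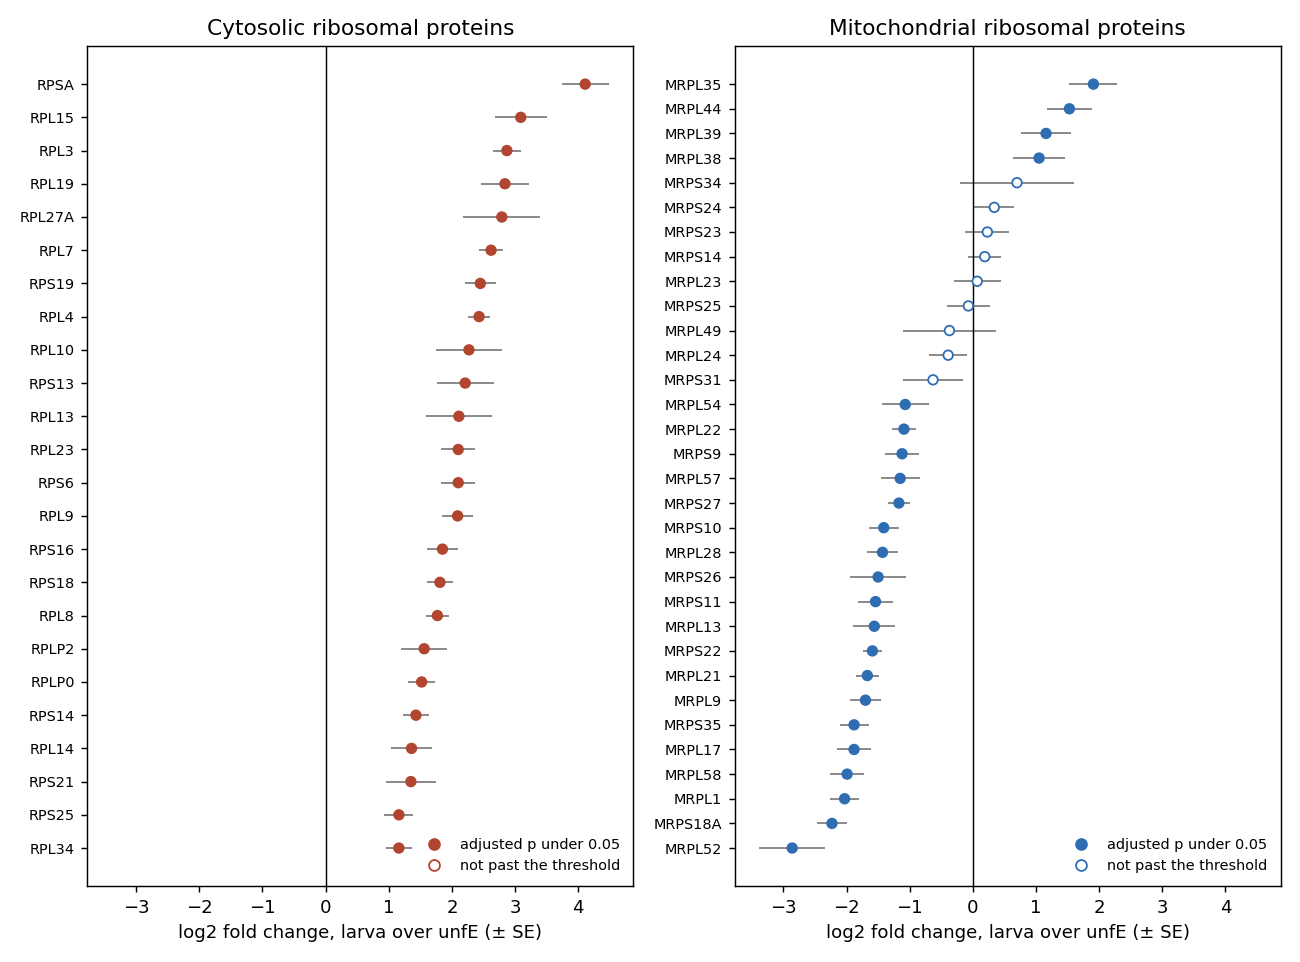
Fitted log2 fold change of larva over unfE for 24 of the 27 cytosolic (left) and all 32 mitochondrial (right) ribosomal protein genes, sorted by value, with bars of 1 SE. Filled points have an adjusted p under 0.05. The cytosolic genes all lie above 1, up to 4.11 for RPSA, and the mitochondrial genes run from -2.86 (MRPL52) to 1.91 (MRPL35).

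Among the small-subunit proteins RPSA moved most. RPSA (KY21.Chr11.1165), which sits on the solvent side of the small subunit and is also known as the laminin receptor precursor, had a TPM of 68.0 and 93.2 in unfE, 91.0 and 85.0 in fertE, 108 and 89.6 in cell16, 214 and 98.7 in iniG, 236 and 148 in latN, 404 and 568 in midTII, 506 and 489 in latTII, and 817 and 1000.5 in larvae. Its larva and midTII libraries were far above those of the egg, with no overlap, and the iniG replicates differed by more than the egg and cell16 libraries did. RPSA rose by a log2 fold change of 4.11 (SE 0.37, adjusted p = 8.1e-07, edgeR) in larvae relative to unfE, and by 1.79 (SE 0.34, adjusted p = 0.0015) in midTII relative to latN. Its mean TPM was 11.3 times higher in larvae, and its rank among KY21 genes was 98 in larvae, against 3218 in unfE.

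RPS6, the target of the S6 kinases, had 626 and 725 TPM in larvae, against 203 and 283 TPM in unfE, and rose by 2.10 (SE 0.27, edgeR adjusted p = 1.6e-05). The lowest larva library was above both unfE libraries. RPS14, a protein of the platform of the small subunit, had 134 and 129 TPM in larvae, against 72.5 and 75.9 TPM in unfE, a rise of 1.43 (SE 0.21, edgeR adjusted p = 4.1e-05).

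At the low end stood RPS21, the lowest cytosolic member over all libraries. RPS21 (KY21.Chr10.977) had 43.3 and 39.5 TPM in larvae, against 23.9 and 25.6 TPM in unfE, a rise of 1.35 (SE 0.40, edgeR adjusted p = 0.0087). Its libraries did not overlap between egg and larva. With library totals in place of TMM factors the call did not hold, at an edgeR adjusted p of 0.097.

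RPLP0 of the P stalk had the highest TPM among the large-subunit genes analysed here. RPLP0 (KY21.Chr11.1231), the base of the stalk that recruits translational GTPases, had 1943 and 2340 TPM in unfE, 2463 and 2232 in fertE, 2764 and 2673 in cell16, 2288 and 2484 in iniG, 3309 and 2435 in latN, 2862 and 2863 in midTII, 2814 and 2190 in latTII, and 3354 and 4652 in larvae. Its libraries ran into each other from unfE to latTII, and both larva libraries were above all others. RPLP0 rose by a log2 fold change of 1.52 (SE 0.21, edgeR adjusted p = 2.6e-05) in larvae relative to unfE, and by 0.72 (SE 0.21, edgeR adjusted p = 0.048) in larvae relative to latTII. It was rank 11 of all KY21 genes by mean TPM in larvae and rank 12 in unfE. Depending on the library it made up 21.1% to 44.1% of the summed TPM of the cytosolic members analysed here.

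RPLP2, an acidic protein that RPLP0 carries on the stalk, lay an order of magnitude lower on the same length-corrected scale. It had 347 and 360 TPM in larvae, against 173 and 192 TPM in unfE, and rose by 1.56 (SE 0.36, edgeR adjusted p = 0.0017). The groups did not overlap. The 2 stalk genes thus had close fold changes, 1.52 and 1.56, at very different levels, and no test of that difference was made.

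The largest rises of the large subunit were those of RPL15, RPL3, RPL19 and RPL27A. RPL15 had 309 and 328 TPM in larvae, against 56.8 and 57.3 TPM in unfE, and rose by 3.09 (SE 0.41, edgeR adjusted p = 2.3e-05). RPL3, which reaches toward the peptidyl transferase centre, had 387 and 445 TPM in larvae, against 82.1 and 91.4 TPM in unfE, and rose by 2.87 (SE 0.22, edgeR adjusted p = 1.2e-07). The replicates of both genes lay close together and the groups were far apart. RPL19, which forms a bridge to the small subunit, had 939 and 967 TPM in larvae, against 216 and 186 TPM in unfE, a rise of 2.84 (SE 0.38, edgeR adjusted p = 2.9e-05). RPL27A had 51.9 and 70.1 TPM in larvae, against 8.24 and 19.3 TPM in unfE, a rise of 2.79 (SE 0.61, edgeR adjusted p = 0.0012). RPL27A was the lowest cytosolic member in the egg and its unfE replicates differed by more than their lower value.

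RPL7 (KY21.Chr2.1079), the third most abundant cytosolic member over all libraries, had a higher stage mean at each step after cell16. It had 210 and 237 TPM in unfE, 235 and 253 in fertE, 217 and 213 in cell16, 284 and 246 in iniG, 465 and 330 in latN, 540 and 594 in midTII, 688 and 586 in latTII, and 930 and 868 in larvae. From latN on both libraries of each stage were above all libraries up to iniG. RPL7 rose by 2.62 (SE 0.19, edgeR adjusted p = 6.4e-08) in larvae relative to unfE. RPL4, whose loop lines the narrow part of the exit tunnel, had 674 and 718 TPM in larvae, against 167 and 230 TPM in unfE, a rise of 2.43 (SE 0.18, edgeR adjusted p = 6.8e-08).

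RPL23, on the face that meets the small subunit, had 148 and 123 TPM in larvae, against 42.7 and 54.1 TPM in unfE, a rise of 2.10 (SE 0.27, edgeR adjusted p = 1.3e-05). RPL10, one of the last proteins to join the maturing large subunit, had 216 and 193 TPM in larvae, against 63.9 and 64.6 TPM in unfE, a rise of 2.27 (SE 0.52, edgeR adjusted p = 0.0017). Neither gene overlapped between egg and larva. RPL13 had 511 and 184 TPM in larvae, against 113 and 131 TPM in unfE, a rise of 2.11 (SE 0.52, edgeR adjusted p = 0.0031). The larva replicates of RPL13 were the least alike of the set, and without larva replicate 1 the change was 1.22 with an adjusted p of 0.056 (edgeR). The smallest rises, both 1.16, were those of RPL34 (339 and 299 TPM in larvae, against 186 and 251 in unfE) and RPS25 (217 and 168 TPM in larvae, against 130 and 132 in unfE).

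**Figure D3:**
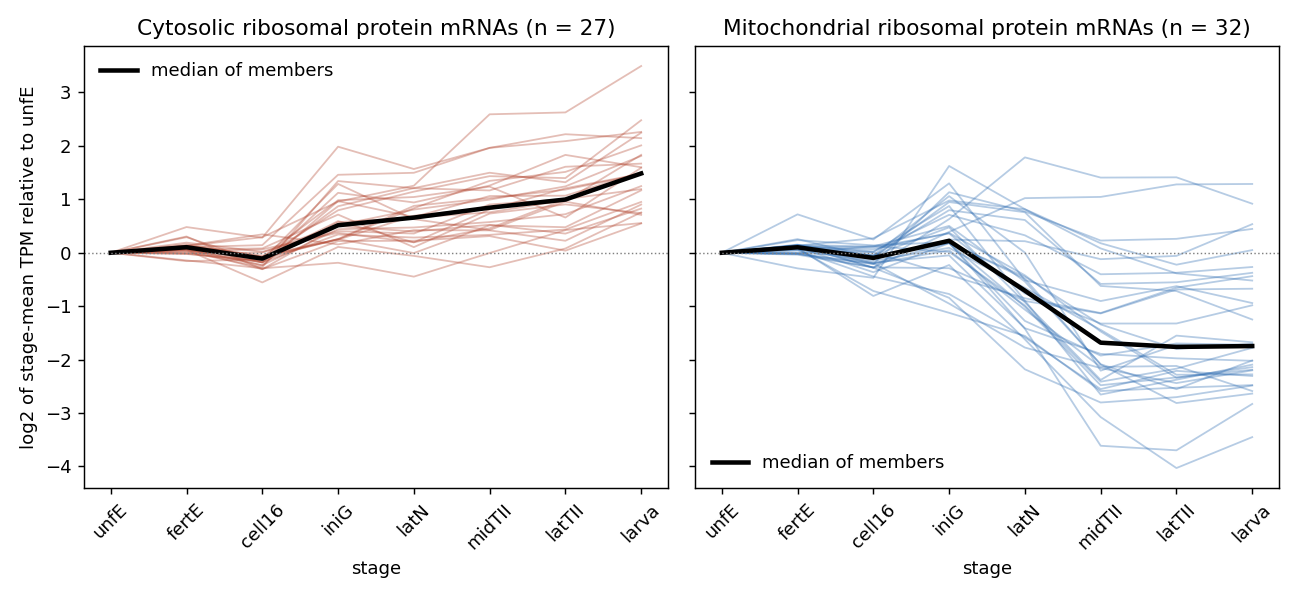
Stage-mean TPM of each member relative to its own unfE mean, on a log2 scale, for the cytosolic (left, n = 27) and mitochondrial (right, n = 32) genes from unfE to larva. Thin lines are genes and the black line is the median of the members. The cytosolic genes lie near 0 until cell16 and all end above it. Most mitochondrial genes drop after iniG, while a few end above 0.

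Turning to mitochondrial proteins, the largest fall was that of MRPL52 (KY21.Chr1.1175), a large-subunit protein with no counterpart in bacteria. It had 3.52 and 6.15 TPM in larvae, against 61.6 and 44.3 TPM in unfE, and fell by 2.86 on the log2 scale (SE 0.52, edgeR adjusted p = 0.00029). MRPS18A (KY21.Chr11.794), counted here by its symbol with the small subunit although the human protein sits in the large one, had 118 and 113 TPM in unfE, 122 and 125 in fertE, 121 and 100.8 in cell16, 126 and 137 in iniG, 39.6 and 46.3 in latN, 9.39 and 9.43 in midTII, 10.3 and 7.48 in latTII, and 15.9 and 16.5 in larvae. Its libraries up to iniG were all above 100 TPM and all later ones below 50. It fell by 2.23 (SE 0.23, edgeR adjusted p = 1.6e-06) in larvae relative to unfE.

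MRPL1 (KY21.Chr14.10), of the mobile L1 stalk near which spent tRNAs leave, was the most abundant mitochondrial member of the egg. It had 228 and 230 TPM in unfE, 266 and 273 in fertE, 255 and 249 in cell16, 249 and 277 in iniG, 137 and 190 in latN, 56.3 and 51.0 in midTII, 41.1 and 24.0 in latTII, and 38.3 and 35.3 in larvae. The latN libraries lay between the earlier and the later stages without touching either. MRPL1 fell by 2.03 (SE 0.23, edgeR adjusted p = 4.1e-06) in larvae relative to unfE, to rank 3536 of KY21 genes in larvae, against rank 401 in unfE.

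MRPL58, a peptidyl-tRNA hydrolase built into the large subunit, had 15.2 and 10.2 TPM in larvae, against 71.4 and 81.6 TPM in unfE, and fell by 1.99 (SE 0.27, edgeR adjusted p = 2.4e-05). MRPS35 had 23.8 and 21.3 TPM in larvae, against 128 and 122 TPM in unfE, and fell by 1.88 (SE 0.23, edgeR adjusted p = 8.8e-06). MRPS27, a pentatricopeptide repeat protein of the small subunit, had 55.7 and 51.0 TPM in larvae, against 173 and 193 TPM in unfE, and fell by 1.17 (SE 0.17, edgeR adjusted p = 4e-05). In each of these genes the larva libraries were well below those of the egg. MRPL21, the third most abundant of the set over all libraries, had 39.6 and 34.0 TPM in larvae, against 168 and 189 TPM in unfE, and fell by 1.67 (SE 0.18, edgeR adjusted p = 2.7e-06).

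MRPS22 (KY21.Chr1.1290), a small-subunit protein found only in mitochondrial ribosomes, was the one mitochondrial member that fell in iniG relative to cell16. It had 157 and 162 TPM in unfE, 163 and 171 in fertE, 149 and 129 in cell16, 77.1 and 87.9 in iniG, 45.1 and 48.2 in latN, 34.1 and 37.4 in midTII, 30.1 and 28.7 in latTII, and 33.2 and 36.2 in larvae. Its iniG libraries were already below all earlier ones. MRPS22 fell by 0.88 (SE 0.15, edgeR adjusted p = 0.0012) in iniG relative to cell16, by 0.61 (SE 0.15, edgeR adjusted p = 0.007) in latN relative to iniG, and by 1.59 (SE 0.15, edgeR adjusted p = 8.4e-07) in larvae relative to unfE.

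Against this, 4 of the 32 members, all of the large subunit, rose in larvae relative to unfE. MRPL35 (KY21.Chr1.1726) had 11.5 and 17.4 TPM in unfE, 11.7 and 20.04 in fertE, 13.1 and 10.7 in cell16, 17.7 and 20.2 in iniG, 18.74 and 40 in latN, 26.9 and 32.8 in midTII, 30.3 and 39.9 in latTII, and 31.3 and 39.3 in larvae. Both replicates of each stage from midTII on were above all libraries up to iniG, and it rose by 1.91 (SE 0.38, edgeR adjusted p = 0.00058). MRPL44, which carries a ribonuclease III-like fold, had 21.7 and 19.5 TPM in larvae, against 9.65 and 12.1 TPM in unfE, a rise of 1.53 (SE 0.36, edgeR adjusted p = 0.002).

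MRPL39, related to threonyl-tRNA synthetases, had 16.3 and 20.1 TPM in larvae, against 9.98 and 15.1 TPM in unfE, a rise of 1.16 (SE 0.40, edgeR adjusted p = 0.02). MRPL38 had 12.1 and 13.6 TPM in larvae, against 9.75 and 9.13 TPM in unfE, a rise of 1.05 (SE 0.41, edgeR adjusted p = 0.035). In these genes the groups did not overlap but lay close. With library totals the calls of MRPL39 and MRPL38 were lost, at adjusted p of 0.21 and 0.31, and without any 1 of the 4 libraries that of MRPL38 was lost too (edgeR adjusted p 0.068 to 0.15). For MRPL39 the adjusted p was 0.13 without unfE replicate 1 and 0.11 without larva replicate 2. All 4 had under 20 TPM in each unfE library.

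The 9 members that did not pass were MRPL23, MRPL24, MRPL49, MRPS14, MRPS23, MRPS24, MRPS25, MRPS31 and MRPS34, with log2 fold changes from -0.63 (MRPS31) to 0.70 (MRPS34). Under some alternative settings MRPL24, MRPS24 and MRPS31 did pass. MRPS14, the most abundant mitochondrial member from midTII on, had 125 and 152 TPM in larvae, against 144 and 232 TPM in unfE, and its groups overlapped (0.19, SE 0.26, edgeR adjusted p = 0.53). MRPS34, the lowest of the set, had 4.76 and 4.03 TPM in larvae, against 2.03 and 6.46 TPM in unfE, also with overlap (0.70, SE 0.90, edgeR adjusted p = 0.50). MRPL49 was next lowest, at 4.88 and 3.43 TPM in larvae, against 7.75 and 8.22 TPM in unfE (-0.37, SE 0.73, edgeR adjusted p = 0.66). The errors of MRPS34 and MRPL49 were larger than their estimates, and the estimates therefore give no direction.

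**Figure D4:**
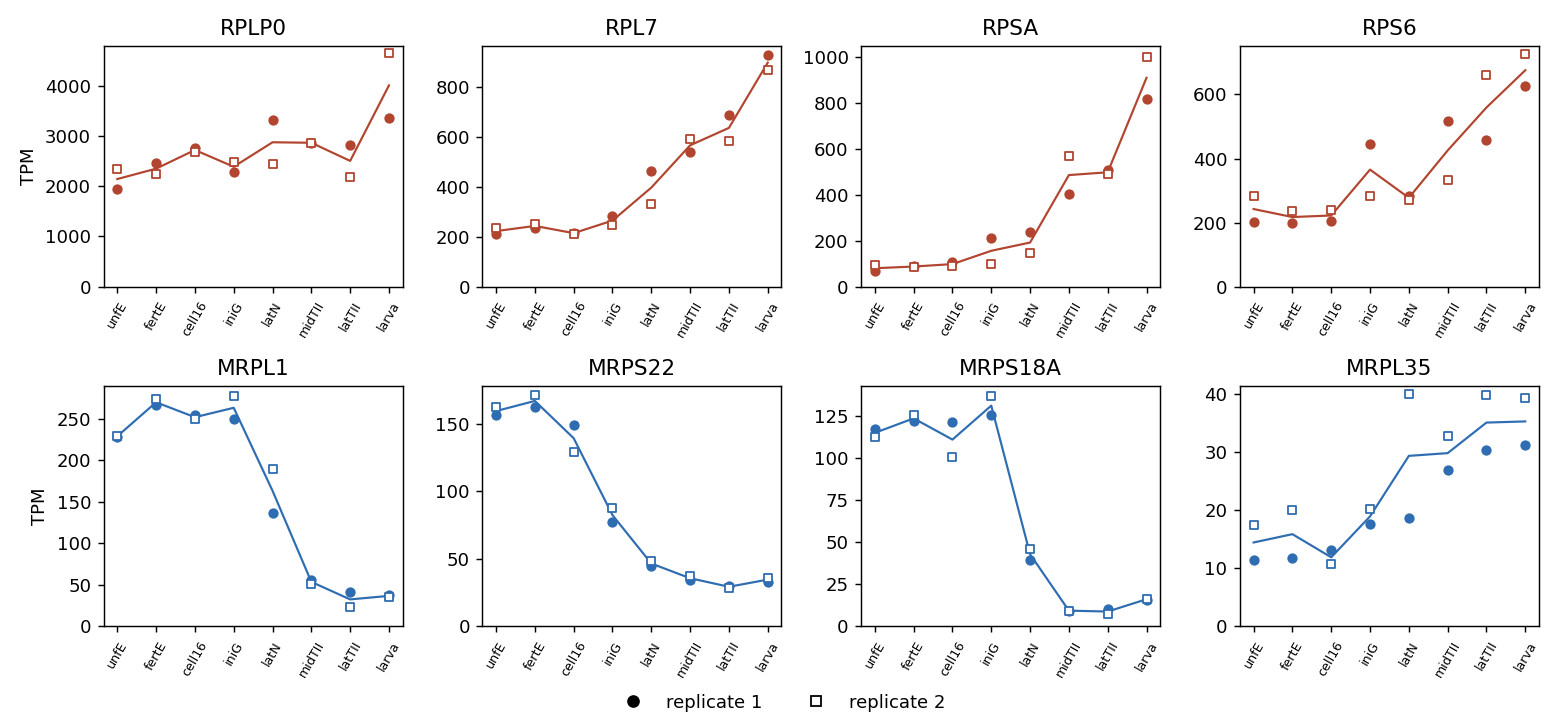
TPM of 4 cytosolic (top) and 4 mitochondrial (bottom) ribosomal protein genes in each of the 16 libraries, by stage from unfE to larva, on linear axes that start at 0. Circles are replicate 1, squares replicate 2, and lines join stage means. RPSA reaches 817 and 1000.5 TPM in larvae, RPS6 reaches 626 and 725 TPM in larvae, MRPS18A is below 50 TPM from latN on, and MRPL35 has its highest stage means in latTII and larvae, although its highest single library is latN replicate 2.

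The time of change was read from the 7 steps between successive stages. In fertE relative to unfE none of the 27 cytosolic or 32 mitochondrial members passed with edgeR (0.00683% of all genes did), none had an unadjusted p under 0.05, and DESeq2 called 0 as well. In cell16 relative to fertE none passed either (2.17% of all genes), with 1 member of each set at an unadjusted p under 0.05, both lower, and 0 cytosolic and 1 mitochondrial call by DESeq2. The median log2 fold change was 0.04 in both sets in the first step and -0.18 in both sets in the second. The mitochondrial one was MRPS35, with 85.2 and 67.6 TPM in cell16, against 127 and 137 TPM in fertE (-0.77, SE 0.22, edgeR adjusted p = 0.11). The same-numbered replicates of unfE, fertE and cell16 deviated together (r of 0.564, 0.562 and 0.608 across genes for the 3 pairs of stages). A replicate block was also fitted on the libraries of these stages alone, added after seeing the data. It gave 1 cytosolic and 5 mitochondrial members lower in cell16 than in fertE and none higher. In that fit edgeR called 2327 of all genes, against 318 in the fit of all 16 libraries without a block. The fits differ in both the block and the libraries used, and these effects were not separated. In fertE relative to unfE the block gave 0 calls in both sets.

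In iniG relative to cell16, 4 cytosolic members rose, RPL3 and RPS14 among them, and none fell, where 19.5% of all genes changed, 11.6% higher and 7.9% lower. RPL3 had 284 and 193 TPM in iniG, against 94.3 and 97.3 TPM in cell16, a rise of 1.21 (SE 0.21, edgeR adjusted p = 0.0014). Of the mitochondrial members MRPS22 fell and MRPL57, a small protein of the large subunit, rose by 1.01 (SE 0.30, edgeR adjusted p = 0.033), with 117 and 75.6 TPM in iniG, against 39.1 and 50.3 TPM in cell16. The cytosolic share of calls, 4 of 27, was near that of all genes. The groups were apart in each of these genes, but the iniG replicates were not alike, since 24 of 27 cytosolic members were higher in iniG replicate 1 than in replicate 2, with a median log2 ratio of 0.49. The cytosolic count was 1 without cell16 replicate 1, 2 without cell16 replicate 2, 2 without iniG replicate 1 and 9 without iniG replicate 2. The mitochondrial count was 1 without either cell16 replicate or iniG replicate 1, MRPL57 being lost each time, and 4 without iniG replicate 2.

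In latN relative to iniG, 14 mitochondrial members fell and 1 rose, where 29.9% of all genes changed, 14.2% lower and 15.7% higher. MRPS26 had 19.0 and 18.8 TPM in latN, against 81.0 and 48.1 TPM in iniG, and fell by 1.57 (SE 0.44, edgeR adjusted p = 0.016). MRPS18A fell by 1.41 (SE 0.22, edgeR adjusted p = 0.00032), and both its latN libraries were under 50 TPM. The exception was MRPL44, which had 43.6 and 31.5 TPM in latN, against 22.0 and 11.7 TPM in iniG, a rise of 1.36 (SE 0.36, edgeR adjusted p = 0.011). In TPM, 21 of the 32 were lower in both latN libraries than in both iniG libraries, against 37.7% of all genes. The count of calls was 7 without iniG replicate 1, 7 without latN replicate 1 and 8 without latN replicate 2. MRPS26 lost its call without any of these 3 libraries (edgeR adjusted p 0.15, 0.08 and 0.084), and MRPL44 without latN replicate 1 (0.11) or iniG replicate 2 (0.10).

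Of the 27 cytosolic members 3 rose in latN relative to iniG, RPL7 and RPL4 among them, and none fell. This share of rises was below the 15.7% of all genes that were higher. RPL7 had 465 and 330 TPM in latN, against 284 and 246 TPM in iniG, and rose by 0.80 (SE 0.18, edgeR adjusted p = 0.0045). Its latN libraries lay above those of iniG, yet 25 of 27 cytosolic members were higher in latN replicate 1 than in replicate 2. The count was 0 without latN replicate 1, 1 without iniG replicate 2 and 5 without latN replicate 2. The replicates of iniG and latN also deviated together by number (r = 0.481 across genes). A block fitted on the libraries of these stages alone was added after seeing the data. With it 8 cytosolic members rose and 19 mitochondrial members fell, and edgeR called 6512 of all genes. The fit of all 16 libraries without a block called 4371. The fits differ in both the block and the libraries used, and these effects were not separated. With library totals the cytosolic median of this step was -0.08, against 0.16 with TMM.

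In midTII relative to latN the calls of the sets had opposite signs, with 12 cytosolic members up and none down, and 7 mitochondrial members down and none up. Over all genes 33.7% changed, 16.8% higher and 16.8% lower. The mitochondrial share of falls, 7 of 32, was near that of all genes. After RPSA, RPS21 had the next largest called change, 1.10 (SE 0.40, edgeR adjusted p = 0.05, just under the threshold), with 38.8 and 43.5 TPM in midTII, against 27.7 and 25.6 TPM in latN. The RPS21 call was lost with a replicate block (0.051), without a filter (0.07), with either limma fit (0.098 and 0.10), with library totals (0.21) and without any 1 of the 4 libraries (edgeR adjusted p 0.12 to 0.22). RPS18 (471 and 475 TPM in midTII, against 336 and 313 TPM in latN) and RPS6 (516 and 334 TPM in midTII, against 283 and 272 TPM in latN) were among the others. MRPL57 fell by 1.74 (SE 0.31, edgeR adjusted p = 0.0009), with 9.92 and 10.2 TPM in midTII, against 50.7 and 42.2 TPM in latN, and MRPS18A fell by 1.71 (SE 0.23, edgeR adjusted p = 8.7e-05). Neither gene overlapped between these stages. The cytosolic count depended on the setting, with 4 calls with library totals and 20 by DESeq2, and so did the mitochondrial one, with 17 with library totals. The shares of all genes called under these settings are not given beside them. Without latN replicate 2 the cytosolic count was 5, and without midTII replicate 2 it was 6.

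In latTII relative to midTII no cytosolic member passed with edgeR (9.06% of all genes did, 4.58% higher and 4.48% lower), with 2 at an unadjusted p under 0.05 and 0 calls by DESeq2. The only mitochondrial call was MRPL21, with 39.6 and 33.7 TPM in latTII, against 61.6 and 69.6 TPM in midTII, which fell by 0.79 (SE 0.18, edgeR adjusted p = 0.014). Its groups did not overlap, but the call was lost without either midTII replicate (0.055 and 0.087, edgeR) or without latTII replicate 2 (0.12), leaving 0 calls, and without latTII replicate 1 the count was 2. The latTII replicates were the least alike of any stage over all genes. RPS13, for example, had 192 and 541 TPM in latTII.

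In larvae relative to latTII, 5 cytosolic members rose, with RPL4, RPL8, RPLP0 and RPS19 among them, and none fell, where 8.45% of all genes changed, 3.27% higher and 5.18% lower. RPS19, mutated in a human anaemia of impaired ribosome production, had 417 and 490 TPM in larvae, against 303 and 195 TPM in latTII, a rise of 0.91 (SE 0.24, edgeR adjusted p = 0.037). In TPM 17 of the 27 were higher in both larva libraries than in both latTII libraries, against 26.8% of all genes. MRPS18A was the only mitochondrial call, a rise of 0.91 (SE 0.23, edgeR adjusted p = 0.025), from a low level, with both larva libraries above both of latTII. The cytosolic count was 0 without latTII replicate 2 or larva replicate 2 and 1 without larva replicate 1, and the mitochondrial count was 0 without any of these 3 libraries and 2 without latTII replicate 1.

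**Figure D5:**
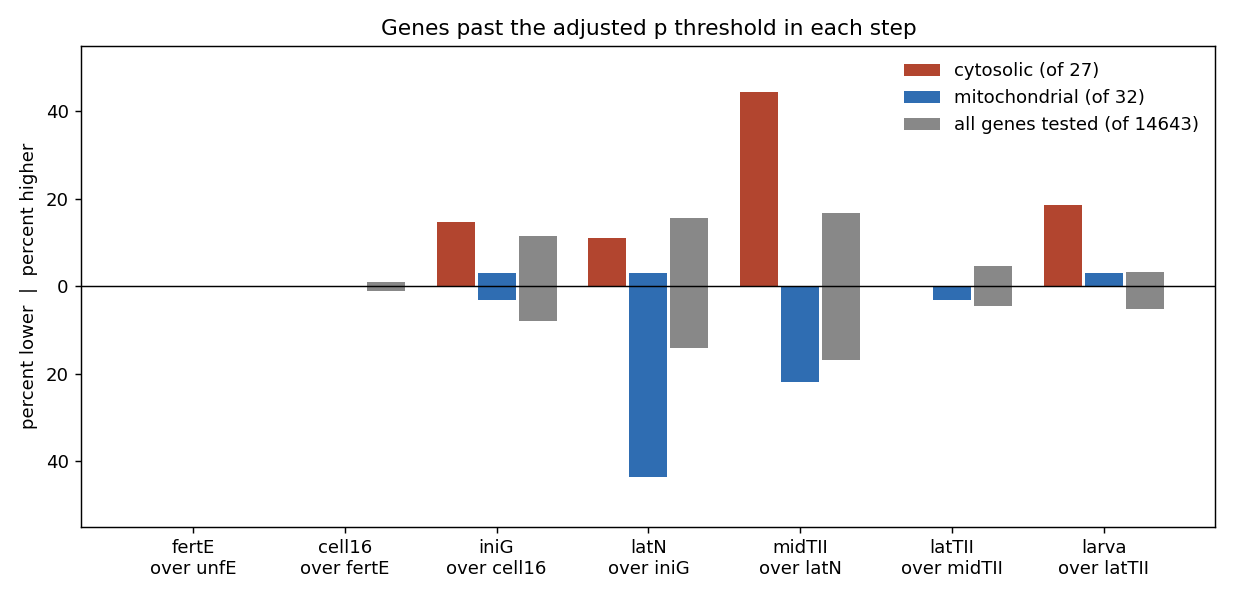
Percentage of the 27 cytosolic and 32 mitochondrial ribosomal protein genes and of all 14643 genes tested that were higher (bars up) or lower (bars down) in each step between successive stages, at an adjusted p under 0.05. Mitochondrial calls are mostly falls, 14 in latN over iniG and 7 in midTII over latN. Cytosolic calls are all rises, with 12 in midTII over latN.

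Counting over the steps, 16 of the 27 cytosolic and 16 of the 32 mitochondrial members passed in at least 1 step, and 6 and 8 in at least 2. The other 11 cytosolic members passed in larvae relative to unfE without passing in any single step, RPL15 and RPL19 among them. Across all 8 stages together 27 of 27 cytosolic and 24 of 32 mitochondrial members changed (edgeR's F test), where 83.1% of all genes did. The weakest changes over the stages in the cytosolic set were those of RPS21 and RPL13 (edgeR adjusted p = 0.0055 and 0.0045). In the mitochondrial set MRPS24 and MRPS34 were weakest and did not pass, MRPS24 having 23.01 and 22.3 TPM in larvae, against 27.6 and 26.9 TPM in unfE.

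The stage of the highest mean differed between the sets. It was the larva in 23 of 27 cytosolic members, of which 17 had both larva libraries above those of the second highest stage, latTII in 3 (RPL27A, RPS13 and RPS21) and iniG in 1. Of the mitochondrial members 17 had it in iniG and 10 in fertE, but only 4 and 1 of these were clear of the second stage. The lowest mean fell in cell16 in 17 cytosolic members, and in midTII, latTII or the larva in 28 of the 32 mitochondrial ones. Highest and lowest stages were not counted over all genes, so how common these patterns are among them was not tested. The highest stage mean of a gene was 1.81 to 11.3 times its lowest in the cytosolic set (median 3.11) and 1.58 to 17.4 times in the mitochondrial set (median 4.97).

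The profiles were also compared gene by gene, as Pearson's r of the 8 stage means of log2(TPM + 1). Stages follow each other and genes share libraries, so these are descriptions over 8 points. The median r between pairs was 0.864 among cytosolic members, with 100% of pairs positive, 0.788 among mitochondrial members, with 81.5% positive, and -0.666 between the sets, where all KY21 genes tested had a median of 0.042. Every cytosolic member was closer to the mean profile of its own set, and so were 28 of the 32 mitochondrial members. The 4 exceptions were MRPL35, MRPL38, MRPL39 and MRPL44, the same 4 that rose. Both readings come from the same libraries, so this match is not separate evidence.

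Levels of mRNA within a set were far from equal. The equal numbers of most ribosomal proteins in a ribosome concern protein, which these values do not measure. In unfE the mean TPM of the cytosolic members ran from 13.8 (RPL27A) to 2141 (RPLP0), a 155-fold spread with a median of 131, and in larvae from 41.4 (RPS21) to 4003 (RPLP0), 96.7-fold with a median of 398. The mitochondrial members ran from 4.25 (MRPS34) to 229 (MRPL1) in unfE, with a median of 52.8, and from 4.16 (MRPL49) to 139 (MRPS14) in larvae, with a median of 21.6. The median gene tested was at 12.8 TPM in larvae and 16.5 TPM in unfE. Reads shared between close gene copies are divided by the mapping program, which may touch members with paralogs.

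The KY21 gene models also carry a tag for the 5′ end of the transcript, which in ascidians can be replaced by a short spliced leader (SL). Of the 27 cytosolic members 21 (77.8%) were tagged nonSL, 3 SL (RPLP2 and RPS13 among them) and 3 not determined. Of the 32 mitochondrial members 16 (50.0%) were SL and 15 nonSL, and among the 2572 genes with a symbol the SL share was 57.4% and the nonSL share 30.6%. In larvae relative to unfE 11 of the 16 SL mitochondrial members fell and 2 rose, and 8 of the 15 nonSL ones fell and 1 rose. The 3 SL cytosolic genes rose by 1.56 to 2.21, within the range of the nonSL ones. These counts were not tested.

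Genes that work with the ribosomes were counted in the same comparison of larva with unfE. Of 19 partners of mitochondrial translation, such as tRNA synthetases and rRNA modifying enzymes, 17 fell and none rose, with a median of -1.63, where 33% of all genes fell and 38.3% rose, with a median of 0.26. AARS2, the mitochondrial alanyl-tRNA synthetase, had 15.3 and 13.3 TPM in larvae, against 124 and 134 TPM in unfE, with no overlap. AARS2, PTCD1 and MRM2, the last a methyltransferase of mitochondrial rRNA, fell by 2.56, 2.60 and 3.34.

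Of 48 ribosome assembly genes 12 rose and 19 fell (median -0.10), and of 25 translation factors and associated proteins 12 rose and 6 fell (median 0.38). The called share of each list, 31 of 48 and 18 of 25, was near the 71.3% of all genes. These lists were counted with TMM scaling only, and the split into rises and falls depends on it. Some called rises, such as those of DKC1 and EIF4E, came with no higher mean TPM in larvae than in unfE. GNL2, a GTPase of large-subunit maturation, had 59.9 and 60.2 TPM in larvae, against 6.07 and 5.52 TPM in unfE, and rose by 3.97 (SE 0.42, edgeR adjusted p = 2.1e-06). LAS1L, an endonuclease of pre-rRNA processing, had 27.3 and 24.8 TPM in larvae, against 195 and 168 TPM in unfE, and fell by 2.20 (SE 0.20, edgeR adjusted p = 7e-07). RACK1, a scaffold on the small subunit that the symbol rule leaves out, had 730 and 850 TPM in larvae, against 258 and 217 TPM in unfE, and rose by 2.33 on the log2 scale.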

How the data were processed

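Poly(A) RNA from whole embryos was sequenced as stranded paired-end libraries. Per the study, adapters were removed with Trim Galore, Salmon quantified transcripts of the KY21 annotation, and these were summed per gene. The deposited estimated counts are not normalised and were rounded to whole numbers here. The TPM values deposited by the authors sum to the same total in each library, including 36 ENSCING rows that hold 18.3% to 27.4% of it, so shares were taken over KY21 rows. Size-factor-normalised values were also deposited and not used. Of 18424 rows, 14643 passed edgeR's filterByExpr with stage as group.

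All 16 libraries were fitted together with a term for each stage in edgeR 4.0.16 (R 4.3.3; TMM, robust quasi-likelihood F-test, Benjamini-Hochberg adjustment over all genes tested). Standard errors were taken as |log2 fold change| divided by √F. The test was also run on simulated counts, drawn independently for each library and with few genes changed. The data here differ, with replicates that deviate together and changes in most genes. That run therefore does not bear on these points. Alternatives were RLE factors, library totals, no filter, limma 3.58.1 on log2(TPM + 1) and log2(TPM + 0.1), DESeq2 1.42.0, a replicate block and leaving out each library. Sums and plots used Python 3.11.15 with pandas 2.3.3 and matplotlib 3.10.9. The depth was 23.1 to 33.4 M counts a library. Replicates of a stage differed by far more than sampling noise (chi-square per gene 37.4 to 111.4) and were kept apart.

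Named members are, in each set, the 3 highest and the 3 lowest by TPM, the 5 largest called rises and falls of larva over unfE without overlap, the 2 largest called rises and falls of each step, the 2 weakest over all stages, those going against the majority, and a few chosen for their role. A few genes that the rule names are not reported here. Members named outside this rule were chosen after their values were seen. The members and all gene lists were chosen with earlier results of these data known. Symbols are closest matches from protein tables held in part (1999 and 1518 entries, 2572 genes). No genome sequence was used here, and positions are not given.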

Additional observations from a re-analysis of the deposited data

How the results depend on the processing

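The direction of the cytosolic set in larvae relative to unfE was the same under every alternative run, with 25 of 27 members called with library totals, 26 with either limma fit and 27 with RLE factors, DESeq2 or no filter, and 26 to 27 with single libraries removed. The mitochondrial count over both directions, 19 falls and 4 rises with all 16 libraries, was lower whenever 1 larva or unfE library was left out. Mitochondrial genes whose calls were gained or lost under other settings are named with their values. The median log2 change of all genes in this comparison was 0.26 with TMM, 0.64 with RLE factors and -0.28 with library totals, and the share of higher calls among all genes 53.7%, 62.0% and 43.2%. The counts of the single steps depended on scaling and on single libraries, and the cause was not tested. The shares of all genes called under each alternative are not set beside these counts. The counts therefore describe the settings and are not read as results about the members. With library totals the cytosolic count was 1 in latN over iniG and 4 in midTII over latN, and the mitochondrial count was 17 in midTII over latN. With limma at a pseudocount of 1 or 0.1 the cytosolic count was 7 and 8 in iniG over cell16, 1 and 1 in latN over iniG, and 4 and 4 in midTII over latN, and the mitochondrial count 4 and 4 in iniG over cell16, 20 and 20 in midTII over latN, and 3 and 3 in latTII over midTII. With DESeq2 the cytosolic count was 11 in iniG over cell16, 5 in latN over iniG, 20 in midTII over latN and 11 in larva over latTII, and the mitochondrial count 1 in cell16 over fertE and 3 in latTII over midTII. Leaving out 1 library gave cytosolic counts of 1 to 9 in iniG over cell16, 0 to 5 in latN over iniG, 5 to 14 in midTII over latN and 0 to 5 in larva over latTII, mitochondrial counts of 1 to 4, 7 to 12, 5 to 6 and 0 to 2 in the same steps and 0 to 2 in latTII over midTII, and 0 in the other steps.

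The ratio of the larva to the unfE share was 2.58 for the cytosolic set (2.55 to 2.61 leaving out a replicate number), 2.83 on counts and 2.98 without RPLP0. For the mitochondrial set it was 0.330 (0.321 to 0.339), 0.314 on counts and 0.346 without MRPL1. Among single genes in larva over unfE only members that did not pass changed sign. MRPL23 was at -0.51 with library totals, -0.48 and -0.49 with limma, -0.26 without unfE replicate 2 and 0.47 without unfE replicate 1. MRPS14 was at -0.40 with library totals, -0.40 and -0.40 with limma, -0.06 without unfE replicate 1 and 0.47 without unfE replicate 2. MRPS23 was at -0.35, -0.36 and -0.38, and MRPS24 at -0.24, -0.26 and -0.27, with library totals and the 2 limma fits. DESeq2 called MRPS24 higher, at 0.71 (adjusted p = 0.044). MRPL24 was called lower with library totals (-0.96, edgeR adjusted p = 0.01) and with limma (adjusted p 0.0033 and 0.0032). MRPS31 was also called lower with library totals (-1.21, edgeR adjusted p = 0.037) and with limma (adjusted p 0.039 and 0.034). MRPS25 was at 0.31 with RLE factors and with DESeq2 and at 0.10 without larva replicate 2, and MRPL49 at 0.01 with RLE factors and 0.00 with DESeq2. Of the called falls, MRPL54 lost its call without unfE replicate 2 (edgeR adjusted p = 0.095), without larva replicate 2 (0.17), with RLE factors (0.12) and with DESeq2 (0.11), MRPL57 without unfE replicate 2 (0.055), and MRPS26 without unfE replicate 1 (0.054) or larva replicate 2 (0.07).

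Stages share replicate numbers. Same-numbered replicates deviated together among unfE, fertE and cell16 (r of 0.564, 0.562 and 0.608) and between iniG and latN (0.481). They did so less between latTII and larva (0.173), and in the other pairs of stages r was -0.149 to 0.048. Whether same-numbered libraries of different stages came from the same fertilisation is not given by the labels, and a low r does not show that they did not. With a replicate block over all stages 27 cytosolic and 23 mitochondrial members passed in larva over unfE, 14 and 7 in midTII over latN, 3 and 14 in latN over iniG, 5 and 2 in iniG over cell16 and 7 and 1 in larva over latTII. Blocks within the first 2 of these sets of stages were added after seeing the data, each fitted on the libraries of those stages alone. A block within unfE, fertE and cell16 gave 1 cytosolic and 5 mitochondrial calls in cell16 over fertE, and one within iniG and latN gave 8 cytosolic calls in latN over iniG. MRPS34, with 10 counts in its lowest library, had an SE of 0.90 in larva over unfE, while MRPL52, with 15.6 in its lowest, passed with an SE of 0.52.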

Other observations

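Ribosomal proteins whose symbol was found only through a frog match were counted in larva over unfE. The human matches were held in part, so these genes may be missing from the members for that reason alone. Of 10 cytosolic ones 9 rose and none fell, with a median log2 fold change of 1.78 (range 1.45 to 2.63). Of 16 mitochondrial ones 8 fell and 3 rose, with a median of -1.08 (range -2.52 to 1.16). By the same test 38.3% of all genes rose and 33% fell.

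Among the translation factors, 3 had the largest fitted changes of larva over unfE. The gene matched to EIF4G3, an initiation scaffold, had 113 and 79.2 TPM in larvae, against 1.40 and 1.35 TPM in unfE, and rose by 6.72 on the log2 scale (SE 0.28, edgeR adjusted p = 4.3e-10). The gene matched to EIF3A had 2046 and 2043 TPM in latN, where no cytosolic member other than RPLP0 was as high, and 43.8 and 21.9 TPM in larvae, against 1.68 and 1.88 TPM in unfE. The gene matched to EEF1A1 had 0.05 and 0.09 TPM in larvae, against 2.24 and 17.8 TPM in unfE. These symbols are closest human matches.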
